A study of Mus musculus with 8 samples.

Results

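The TH2 cytokine locus of the mouse was followed as 7 genes of the 54146 in the RNA-seq data: Il4, Il13, Il5, Rad50 and Kif3a, which lie side by side on chromosome 11, and the TH2-type cytokine genes Il9 on chromosome 13 and Il24 on chromosome 1. The 7 were taken by gene symbol, and each symbol matched 1 gene. RNA was sequenced from EL4 cells, a mouse T lymphoblast line, after stimulation for 4 h with PMA (50 ng/ml) and ionomycin (1 μM). All 4 lines of cells had been transduced with retrovirus, and they differed in the proteins expressed: the control proteins GFP and Plum (GFP + Plum), FLAG-T-bet with Plum (T-bet + Plum), GFP with HA-GATA3 (GFP + GATA3) or FLAG-T-bet with HA-GATA3 (T-bet + GATA3). Each group is 1 line with 2 libraries, which are harvests of that line on different days, so the p-values measure the spread between harvests and not between independently made lines. EL4 cells have Gata3 of their own, so the control line is not free of GATA3, and all lines received the same stimulus, so an unstimulated level was not analysed here.

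TH2 cells are helper T cells that protect against parasites and drive allergic inflammation through interleukins, above all IL-4, IL-13 and IL-5. The genes for these 3 are held together with Rad50, whose introns contain a control region for the whole cluster, and GATA3 is the factor that opens and activates the cluster in TH2 cells. T-bet, the master factor of TH1 cells, is known for holding the TH2 programme down and for binding GATA3 itself.

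The quality of the libraries was first examined. Their totals ran from 8038284 to 16003190 counts, and a floor of 3 counts in a library corresponded to between 0.186 and 0.373 CPM (counts scaled to a common library size, with TMM normalisation). Tbx21, which encodes T-bet, had a mean of 144 ± 21.3 and 148 ± 17.8 CPM (SD, n = 2 throughout) in the lines with T-bet and of 2.68 ± 1.28 and 2.12 ± 0.148 CPM in those without. Gata3 had a mean of 304 ± 30.0 and 184 ± 27.5 CPM in the lines with added GATA3 (without and with T-bet) and of 46.5 ± 9.54 and 30.3 ± 6.44 CPM in their counterparts. Of 10 T cell markers, 9 lay above the floor in all 8 libraries, and the other, Cd247, was at 0 in 3 libraries and reached only 10 counts.

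The start regions of the 3 classical TH2 cytokine genes are shown because Il4 and Il5 had counts well above 0 in some lines and Il13, which lies between them, stayed near 0. Each stretch runs 5′ to 3′ on the strand of its gene, from 250 bases before the start site to the 30 bases from it on, as held in RefSeq for GRCm38.p6. Il4 spans chr11:53618636-53618915 (minus strand), Il13 spans chr11:53634673-53634952 (minus strand) and Il5 spans chr11:53720544-53720823 (plus strand). Capitals mark a GATA motif (the letters GATA with A or T before and A or G after them, on either strand) or a T-box core (GGTGTG, on either strand).
Il4: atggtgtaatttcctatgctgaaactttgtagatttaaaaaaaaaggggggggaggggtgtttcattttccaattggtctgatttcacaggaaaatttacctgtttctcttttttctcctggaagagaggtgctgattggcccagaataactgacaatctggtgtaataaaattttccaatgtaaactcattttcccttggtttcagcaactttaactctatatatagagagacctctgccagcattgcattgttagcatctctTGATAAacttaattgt
Il13: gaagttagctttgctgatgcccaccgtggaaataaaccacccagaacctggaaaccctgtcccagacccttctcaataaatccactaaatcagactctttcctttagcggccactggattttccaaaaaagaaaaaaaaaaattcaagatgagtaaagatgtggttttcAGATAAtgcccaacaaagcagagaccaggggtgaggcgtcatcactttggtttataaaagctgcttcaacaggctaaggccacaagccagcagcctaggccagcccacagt
Il5: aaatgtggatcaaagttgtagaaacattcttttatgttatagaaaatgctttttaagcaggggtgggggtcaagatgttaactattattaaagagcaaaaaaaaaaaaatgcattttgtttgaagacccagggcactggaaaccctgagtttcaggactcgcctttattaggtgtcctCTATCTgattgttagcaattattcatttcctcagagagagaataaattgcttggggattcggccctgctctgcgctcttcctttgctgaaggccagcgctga
With the start site as position 0, the GATA motif of Il4 lay at 14 to 19, that of Il13 at -81 to -76, and that of Il5 at -72 to -67 on the opposite strand. At least 1 GATA motif was found in 28.7% of all 32851 start regions of this length in the table. A T-box core was found in none of the 3, and 17.9% of all start regions hold one. A TATA motif (TATAAA, with TATATA also allowed, either strand) began 31 bases before the start of Il4 and of Il13 in 2 overlapping matches each, was not found for Il5, and is held by 16.5% of all regions. The short NFAT core GGAAA, read on either strand, was found 5 times for Il4, 4 times for Il13 and 2 times for Il5, and 59.2% of all regions hold it. The start regions of Kif3a and Il9, read in the same way, held neither a GATA motif nor a T-box core, and that of Il9 held the only AP-1 motif (TGANTCA) of the 5 members, a motif in 7.46% of all regions. For Rad50 and Il24 no start region is shown.

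Il4 encodes the cytokine that both defines TH2 cells and instructs other T cells to become TH2 cells. It lies at chromosome 11, 53602982 to 53618669 (GRCm38), on the minus strand. No Il4 count was found in either GFP + Plum library, where the floor of 3 counts corresponds to 0.186 and 0.190 CPM and the 95% Poisson limit of a count of 0 to 0.228 and 0.234 CPM. T-bet + Plum had 3 and 12 counts (0.373 and 0.821 CPM), GFP + GATA3 had 0 and 12 (0 and 0.761 CPM), and T-bet + GATA3 had 25 and 23 (2.70 and 1.53 CPM). Both T-bet + GATA3 libraries were thus above every other library. Taken line by line, this held for 22.8% of all genes against GFP + Plum, 26.5% against GFP + GATA3 and 14.2% against T-bet + Plum. The share above all other lines at once was not counted. Both T-bet + Plum libraries were above the control line, as for 25.9% of all genes, and the GFP + GATA3 libraries disagreed. All Il4 counts fell on 1 of its 4 transcript models, the coding model of 590 bases. The counting intervals are wide at these depths, with 25 counts allowing 16.2 to 36.9 and 3 counts allowing 0.619 to 8.77 (exact Poisson, 95%, counting error only).

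Genes were called in edgeR's quasi-likelihood test where the adjusted p did not exceed 0.05 and the log2 fold change (log2 FC) was larger than 1.5 in either direction, from 1 fit of the 8 libraries over 14791 genes. Il4, Il5, Rad50 and Kif3a passed the filter on low counts, and Il13, Il9 and Il24 did not. Il4 passed it only through the libraries in which it was high, so its adjusted p values describe these libraries and are not independent support for a difference. Il5, with 26 and 0 counts in GFP + Plum, passed the filter through the lines with an added factor. Its p values against GFP + Plum are therefore also a description. In T-bet + GATA3 versus GFP + Plum, Il4 was at least 11.3-fold higher (the mean CPM against the floor of 3 counts per library), with an adjusted p of 0.0496. The other tested members were not called in this comparison, in which 1.94% of all genes tested were called higher and 2.61% in either direction. At an unadjusted p under 0.05 Il4 and Il5 were found (17.8% of all genes), and DESeq2 called both. DESeq2 was run on 30930 genes without this filter, but with its own default filtering on mean counts before the adjustment. Genes so removed could not be called. Its shares are of all 30930 genes, a wider base than that of edgeR, and it called 1.39% of them here. The edgeR call of Il4 was lost without either GFP + Plum library (adjusted p = 0.114 and 0.130), either T-bet + Plum library (0.0925 and 0.0948) or either T-bet + GATA3 library (0.186 and 0.0843), and kept without either GFP + GATA3 library (0.0182 and 0.0190). As RNA of whole cultures was measured, more Il4-expressing cells and more Il4 RNA per cell cannot be told apart.

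T-bet alone was next compared with the control line. Il4 was at least 3.18-fold higher in T-bet + Plum, with an adjusted p of 0.140 by edgeR and of 0.0443 by DESeq2. This bound rested mostly on replicate 2 (0.821 CPM), since replicate 1 was at its own floor of 3 counts (0.373 CPM). With GATA3 alone, replicate 1 had no Il4 count, as in the control line. The mean, carried by replicate 2, was 2.02 times the floor, which is no lower bound for the line (adjusted p of 1). The effect of adding T-bet to cells with GATA3 was a ratio of 5.56 (log2 FC 2.27 ± 0.958 SE, 95% interval 0.01 to 4.53, adjusted p = 0.254), and that of adding GATA3 to cells with T-bet was a ratio of 3.55 (1.71 ± 0.935, interval -0.50 to 3.91, adjusted p = 1). Single libraries moved both: the first log2 FC was 1.44 without replicate 1 of GFP + GATA3, and without its replicate 2 that line had no Il4 count, while the second was 2.45 without replicate 2 of T-bet + Plum. In both, the 2 libraries of T-bet + GATA3 lay above the 2 of the other line, as 26.5% and 14.2% of all genes did in these comparisons. Both libraries of T-bet + Plum and of T-bet + GATA3 also lay above both control libraries (25.9% and 22.8% of all genes). By mean level the order was T-bet + GATA3, T-bet + Plum, GFP + GATA3 and GFP + Plum, and the ranges of T-bet + Plum and GFP + GATA3 overlapped.

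Mast cells and basophils also make IL-4, and markers of both were examined. Fcer1a, Ms4a2 and Mcpt4, 3 of the 5 markers, were at 0 in all libraries, and Mcpt8 did not exceed 3 counts. Cpa3 was detected in every library, and the sum of the list, set by Cpa3, was between 75.4 and 158 TPM (transcript abundance per length, on a scale shared by all transcripts of a library) in GFP + Plum, 58.4 and 69.5 in GFP + GATA3, 2.82 and 3.92 in T-bet + Plum, and 8.12 and 10.5 in T-bet + GATA3. Of the 4 markers of innate lymphoid cells and eosinophils, only Il1rl1 was above the floor in all libraries, and their sum was between 0.174 and 0.333 TPM in the lines without T-bet and between 1.38 and 4.36 TPM in those with T-bet. All cultures were of the EL4 T lymphoblast line, and a link of these genes to the Il4 and Il5 levels was not tested. The 3 B cell markers summed to at most 0.258 TPM in any library and the 5 myeloid markers to at most 0.473 TPM.

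**Figure D1:**
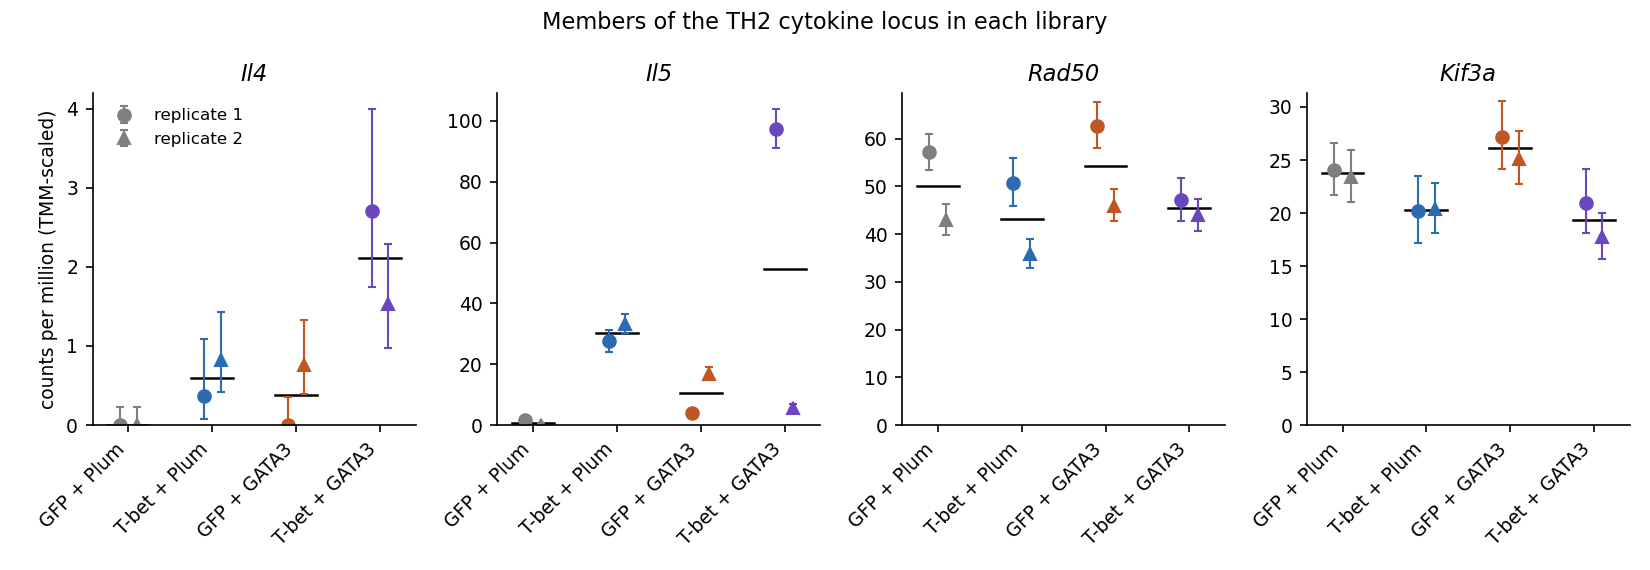
CPM of Il4, Il5, Rad50 and Kif3a (each axis from 0) in the 2 libraries of each line, with circles for replicate 1, triangles for replicate 2, error bars for the exact Poisson 95% interval of the count and black lines for the mean. Il4 is at 0 in both GFP + Plum libraries, the T-bet + GATA3 libraries differ widely for Il5 (97.2 and 5.59 CPM), and the 4 T-bet libraries of Kif3a (17.8 to 20.98 CPM) lie below the 4 others.

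Il5 encodes the growth and survival factor of eosinophils. It lies at chromosome 11, 53720794 to 53725106 on the plus strand, 102 kb from the start of Il4, and has 1 transcript model, of 1537 bases. The GFP + Plum libraries held 26 and 0 counts (1.61 and 0 CPM). Those of T-bet + Plum held 221 and 487 (27.5 and 33.3 CPM), those of GFP + GATA3 held 42 and 265 (4.02 and 16.8 CPM), and those of T-bet + GATA3 held 899 and 84 (97.2 and 5.59 CPM). Every library with an added factor was therefore above both control libraries, as for 25.9% of all genes in T-bet + Plum, 14.3% in GFP + GATA3 and 22.8% in T-bet + GATA3, and T-bet + Plum was the only one of these lines with close values. In T-bet + GATA3, replicate 1 had the highest and replicate 2 the second lowest level among the 6 libraries with an added factor.

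The means were 0.805 ± 1.14 CPM in GFP + Plum, 30.4 ± 4.10 in T-bet + Plum, 10.4 ± 9.04 in GFP + GATA3 and 51.4 ± 64.8 in T-bet + GATA3. T-bet alone gave a ratio of 37.8 (log2 FC 5.21 ± 1.53 SE, 95% interval 1.69 to 8.74), which did not pass the threshold in edgeR's test (adjusted p = 0.0969). No member was called in this comparison, in which 3.02% of all genes were. At an unadjusted p under 0.05, 2 of the 4 tested members (Il4 and Il5) were found, beside 19.4% of all genes, and DESeq2 called 1, Il4 (1.54% of its 30930 genes). The adjusted p of Il5 in edgeR fell to 0.0304 and 0.0237 without replicates 1 and 2 of T-bet + GATA3, the line whose libraries differed most, and rose to 0.307 without replicate 2 of GFP + Plum, in which Il5 was at 0 (log2 FC 4.24). Without replicate 1 the control line had no Il5 count, and no fold can be given. In a fit of the libraries of the 2 lines alone the adjusted p of Il5 was 0.0191. With 26 and 0 counts in the control line, Il5 passed the filter there through T-bet + Plum, so this value is a description only.

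GATA3 alone gave an Il5 ratio of 12.9 (log2 FC 3.70 ± 1.55, interval 0.14 to 7.27, adjusted p = 1). It was 2.29 without replicate 2 of GFP + GATA3, 4.36 without its replicate 1 and 2.74 without replicate 2 of GFP + Plum, and without replicate 1 of GFP + Plum that line had no count. No member was called by edgeR or DESeq2 for GFP + GATA3 versus GFP + Plum, where 0.0203% of all genes were called by edgeR and 0.0938% of 30930 by DESeq2, and Il4 and Il5 were the 2 members with an unadjusted p under 0.05 (3.70% of all genes). Both factors together gave a ratio of 63.9 over the control line (5.95 ± 1.54, interval 2.40 to 9.50, adjusted p = 0.0744), and DESeq2 called Il5 here with an adjusted p of 0.0470. With so few Il5 counts in the control line, both adjusted p values are a description only. Single libraries moved this value: the log2 FC was 2.75 without replicate 1 of T-bet + GATA3, 6.85 without its replicate 2 and 4.97 without replicate 2 of GFP + Plum. All control counts came from replicate 1 of GFP + Plum. The 2 other comparisons that share T-bet + GATA3 went the same way. T-bet + GATA3 versus GFP + GATA3 gave 2.25 ± 1.18 (interval -0.47 to 4.96, adjusted p = 0.351) and T-bet + GATA3 versus T-bet + Plum gave 0.74 ± 1.12 (interval -1.84 to 3.31, adjusted p = 1). Both turned negative without replicate 1 of T-bet + GATA3 (-0.95 and -2.45).

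**Figure D2:**
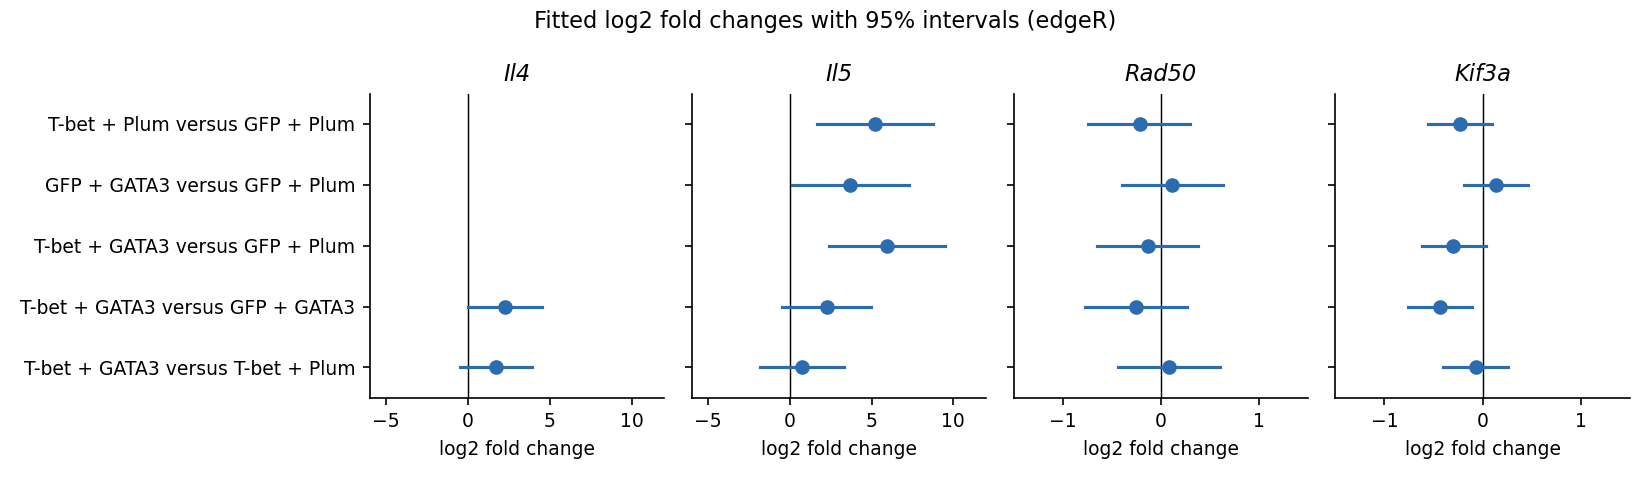
Log2 FC (points) with 95% intervals (lines) of the tested members in 5 comparisons of lines by edgeR, with wider axes for the cytokine genes. Comparisons of Il4 with GFP + Plum are left out because Il4 had no counts there. The intervals of Il5 span several log2 units whereas those of Rad50 and Kif3a lie between -0.77 and 0.63.

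The lines with and without T-bet were then set against each other, whatever their GATA3, in a contrast chosen after the values of Kif3a were seen. With the 2 effects of T-bet averaged, Il5 was called higher with T-bet (log2 FC 3.73 ± 0.971, interval 1.5 to 5.97, adjusted p = 0.0370), as were 2.91% of all genes tested, with 4.5% called in either direction. Il4 had an adjusted p of 0.0416, again as a description only. At an unadjusted p under 0.05 these and Kif3a were found (29.2% of all genes). Il4 ran from 0.373 to 2.70 CPM in the 4 libraries with T-bet and from 0 to 0.761 CPM in the 4 without, and Il5 from 5.59 to 97.2 CPM and from 0 to 16.8 CPM, so that the groups overlapped for both. The call of Il4 was kept without either GFP + GATA3 library and lost without any 1 of the other 6 (adjusted p from 0.0617 to 0.191). That of Il5 was kept without replicate 1 of GFP + Plum (0.0438) or replicate 2 of T-bet + GATA3 (0.00611) and lost without any 1 of the other 6 (0.0640 to 0.116), with its lowest log2 FC, 2.12, without replicate 1 of T-bet + GATA3. By DESeq2, which called 2.05% of its 30930 genes, Il4 was called and Il5 was not (0.0584). The interaction, which asks whether GATA3 acted differently with and without T-bet, was called for no member or other gene by edgeR (0% of all genes). No member had an unadjusted p under 0.05 in it (2.58% of all genes did) and DESeq2 called no member (0.0356% of its 30930 genes). For Il5 it was -2.97 ± 1.94 with a 95% interval of -7.42 to 1.49. Single libraries moved this value, to -6.15 without replicate 1 of T-bet + GATA3 and to -1.56 without replicate 2 of GFP + GATA3. Without replicate 1 of GFP + Plum that line had no Il5 count. No member was called in T-bet + GATA3 versus GFP + GATA3 either, by edgeR (2.85% of all genes) or DESeq2 (1.5% of its 30930 genes), and Il4 and Kif3a had an unadjusted p under 0.05 there (19.6% of all genes). Adding GATA3 to T-bet called no member (0.0338% of all genes), with none at an unadjusted p under 0.05 (3.78%) and none by DESeq2 (0.0744% of its 30930 genes).

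Levels per length allowed Il5 and Il4 to be compared within a library. In TPM, Il5 exceeded Il4 in each of the 5 libraries with Il4 counts, 26.1 and 14.4 times in T-bet + Plum, 7.80 times in replicate 2 of GFP + GATA3, and 12.8 and 1.29 times in T-bet + GATA3. These ratios are imprecise, as they rest on Il4 counts of 3 and 12, of 12, and of 25 and 23 in the same order. In the library with most Il5, replicate 1 of T-bet + GATA3, Il5 was at 62.2 TPM, above 88.2% of the genes tested, and Il4 at 4.87 TPM was above 40.0% of them. Across the 8 libraries the log2 CPM of Il4 and Il5 had a Pearson r of 0.77, as a description of points that share their lines and depths. By the same measure the protein-coding genes most like Il4 were Rhobtb3 (r = 0.966), Dusp1 (0.959) and Cast (0.956), of 11061 compared, and those most like Il5 were RP23-161B11.4 (0.963), Dnlz (0.951) and Mst1r (0.950). An r above 0.9 was reached by 40 genes for Il4 and by 39 for Il5. Mst1r ran from 2.03 to 19.5 CPM and peaked in the same library as Il5, while RP23-161B11.4 did not exceed 1.19 CPM. Rhobtb3 was also low, at 0.191 to 1.84 CPM.

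Il13 encodes the cytokine of mucus production and of the expulsion of worms. It lies between Il4 and Rad50, at chromosome 11, 53631324 to 53634702 on the minus strand. Its counts were 0 and 0 in GFP + Plum, 0 and 1 in T-bet + Plum, 0 and 2 in GFP + GATA3, and 0 and 6 in T-bet + GATA3. Only the last library was above the floor of 3 counts, and the other library of its line had none. In edgeR's test without the filter on low counts, T-bet + GATA3 versus GFP + Plum gave an unadjusted p of 0.0396 and an adjusted p of 0.378 for Il13, and no comparison called it. These values are a description only, since all 6 counts of T-bet + GATA3 came from 1 library.

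Il9, which encodes a growth factor of mast cells, had 2 counts in replicate 1 of GFP + Plum and 0 in the other 7 libraries. It lies at chromosome 13, 56479277 to 56482246. Il24, which encodes a cytokine of the IL-10 family and lies at chromosome 1, 130882074 to 130887454, had between 0 and 2 counts in every library. The 2 counts of the GFP + Plum and GFP + GATA3 lines fell on a model of 391 bases marked for nonsense-mediated decay, and the 4 counts of the T-bet lines on a coding model of 1159 bases. Neither gene was above the floor in any library, and no fold is given.

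Rad50 encodes a subunit of the complex that holds and processes broken DNA ends, and its body carries the control region of the cytokine cluster. It lies between Il13 and Il5, at chromosome 11, 53649519 to 53707319 on the minus strand. Its levels were 57.1 and 42.9 CPM in GFP + Plum, 50.7 and 35.8 in T-bet + Plum, 62.7 and 45.97 in GFP + GATA3, and 47.2 and 44.0 in T-bet + GATA3. The lines overlapped, and replicate 1 was above replicate 2 in all 4, as for 12.7% of all genes. No comparison called Rad50: the log2 FC was -0.22 for T-bet alone (95% interval -0.74 to 0.30), 0.12 for GATA3 alone (-0.40 to 0.63) and -0.14 for both (-0.65 to 0.38), with adjusted p of 0.672, 1 and 0.828. Adding T-bet to GATA3 gave -0.25 (-0.77 to 0.27) and adding GATA3 to T-bet gave 0.08 (-0.44 to 0.60). All 5 intervals exclude a 2-fold change in either direction. The same gene thus varied little between the lines in which its neighbours Il4 and Il5 ran from 0 to 25 and from 0 to 899 counts.

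Kif3a encodes a motor subunit of kinesin II, which carries cargo into cilia. It lies next to Il4, at chromosome 11, 53567379 to 53601967 on the plus strand. Its levels were 24.1 and 23.4 CPM in GFP + Plum, 27.2 and 25.1 in GFP + GATA3, 20.2 and 20.4 in T-bet + Plum, and 20.98 and 17.8 in T-bet + GATA3. The 4 libraries with T-bet were all below the 4 without, a pattern shared by 10.2% of all genes tested. The difference was small, at a log2 FC of -0.33 ± 0.101 for T-bet averaged over both GATA3 states (interval -0.56 to -0.10, adjusted p = 0.0632). It was -0.23 ± 0.142 without GATA3 (-0.56 to 0.10, adjusted p = 0.439) and -0.44 ± 0.143 with GATA3 (-0.76 to -0.11, adjusted p = 0.133). None of these was called. The adjusted p of the averaged effect was 0.0384 with scaling by library size alone and 0.0947 with transcript length offsets, and with these offsets the log2 FC for T-bet alone was -0.08 (adjusted p = 0.863).

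The transcript models behind both genes were examined, since kallisto splits fragments between models. For Kif3a, the coding model of 3161 bases held between 49.6% and 66.0% of the counts, and a model of 770 bases marked for nonsense-mediated decay held between 31.3% and 52.7% of the TPM. The TPM of all coding models of Kif3a was 8.16 and 8.15 in GFP + Plum, 10.6 and 8.65 in GFP + GATA3, 6.85 and 6.61 in T-bet + Plum, and 5.72 and 5.45 in T-bet + GATA3. The coding models were lower in all 4 libraries with T-bet, as for 15.9% of 11064 tested genes with coding models, whereas the total TPM of Kif3a overlapped (12.4 in replicate 2 of T-bet + Plum against 11.9 in replicate 2 of GFP + Plum), as did the remaining models, between 3.71 and 9.62 TPM without T-bet and between 4.66 and 5.83 TPM with it. For Rad50 the coding model of 5153 bases held between 87.7% and 92.9% of the counts, and a non-coding model of 693 bases held between 32.6% and 51.5% of the TPM. The coding models of Rad50 were between 8.21 and 13.2 TPM without T-bet and between 6.79 and 9.79 TPM with it.

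**Figure D3:**
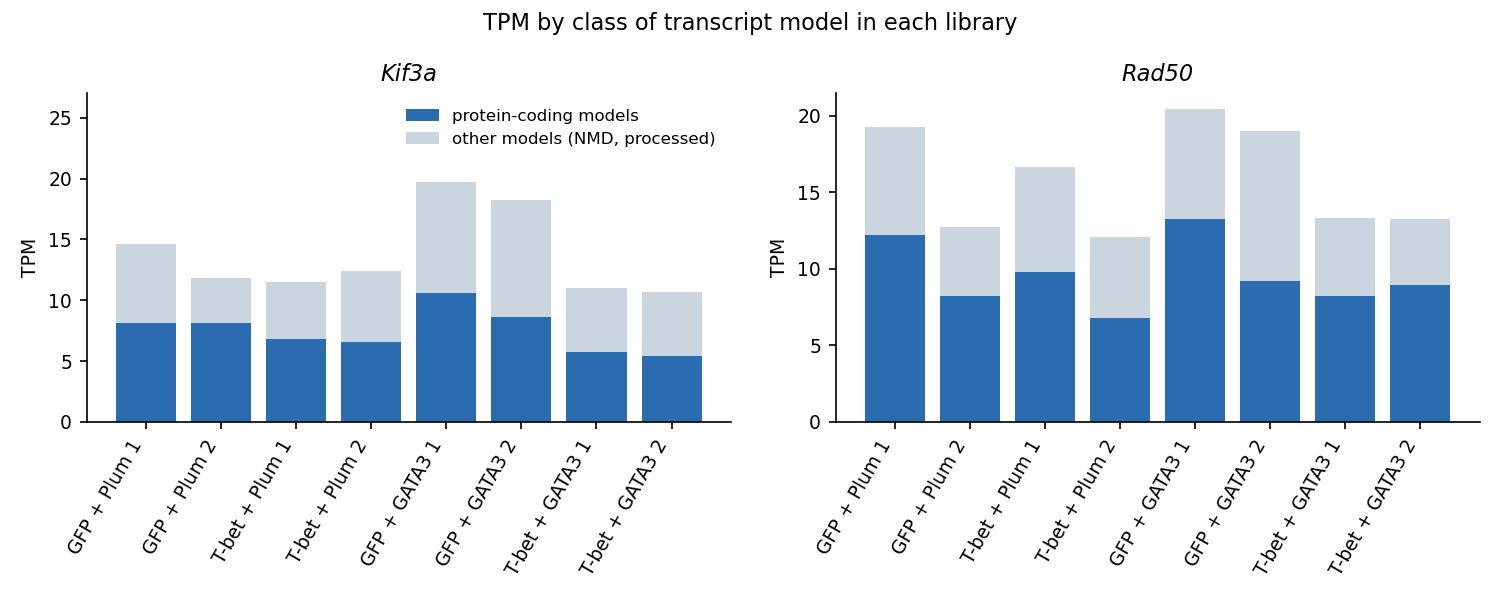
TPM (bars from 0) of Kif3a and Rad50 in each library, split into coding models and models marked as nonsense-mediated decay or processed transcript. The coding part of Kif3a is between 5.45 and 6.85 TPM in the 4 libraries with T-bet and between 8.15 and 10.6 TPM in the 4 others, a separation seen for 15.9% of tested genes with coding models.

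The partners of these proteins served as a further comparison. All 6 (Mre11a, Nbn and Atm for Rad50, and Kif3b, Kif3c and Kifap3 for Kif3a) were tested and 0 were called in any comparison of lines, in which between 0.0203% and 3.02% of all genes were, so that this count does not set them apart. Their median log2 FC was -0.11 in T-bet + Plum versus GFP + Plum and -0.14 in T-bet + GATA3 versus GFP + GATA3, beside 0.01 for all genes in both.

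The neighbourhood was then followed from 250 kb before Kif3a to 250 kb after Il5 (chromosome 11, 53317379 to 53975106). It holds 36 annotated genes, of which 12 were tested and 8 of those are not members. Of these 8, Irf1 and Sept8 were called for T-bet alone (3.02% of all genes were), Irf1 for both factors against GFP + Plum (2.61%) and Sept8 for T-bet on top of GATA3 (2.85%). Irf1, which encodes an interferon-responsive transcription factor and starts 151 kb from Il4 on the far side of Il5, was at 8.80 ± 0.245 CPM in GFP + Plum, 28.5 ± 1.10 in T-bet + Plum, 14.2 ± 0.679 in GFP + GATA3 and 28.0 ± 4.43 in T-bet + GATA3. It rose in T-bet + Plum versus GFP + Plum (log2 FC 1.69 ± 0.162, adjusted p = 0.00108) and in T-bet + GATA3 versus GFP + Plum (1.67 ± 0.162, adjusted p = 0.00121, with 1.47 and so no call without replicate 1 of T-bet + GATA3). Against GFP + GATA3 it was 0.98 ± 0.158 (adjusted p = 0.0110), under the size threshold.

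Sept8, which encodes a septin of the cytoskeleton and starts on the far side of Kif3a, at -99.4 kb from the Il4 start,, went the other way. Its mean was 48.4 ± 12.7 CPM in GFP + Plum and 54.1 ± 5.88 in GFP + GATA3, against 15.4 ± 1.99 in T-bet + Plum and 17.7 ± 5.85 in T-bet + GATA3. It fell with T-bet alone (log2 FC -1.65 ± 0.266, adjusted p = 0.0112) and with T-bet on top of GATA3 (-1.63 ± 0.265, adjusted p = 0.0113), and was not called with both factors against GFP + Plum (-1.46 ± 0.264, adjusted p = 0.0188), under the size threshold. The first call was lost without replicate 1 (-1.53, adjusted p = 0.0887) or 2 (-1.80, 0.0791) of T-bet + Plum or replicate 2 of GFP + Plum (-1.35, 0.0381), and the second without replicate 2 of GFP + GATA3 (-1.51, 0.0776) or of T-bet + GATA3 (-1.35, 0.0437). The other 6 tested genes of this stretch were not called in any comparison of lines. For 1 of them, RP23-303F24.3, T-bet averaged over GATA3 states passed the thresholds, but it passed the filter only through the T-bet lines (1.07 and 1.06 CPM, against 0.347 and 0.382), so this is a description.

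**Figure D4:**
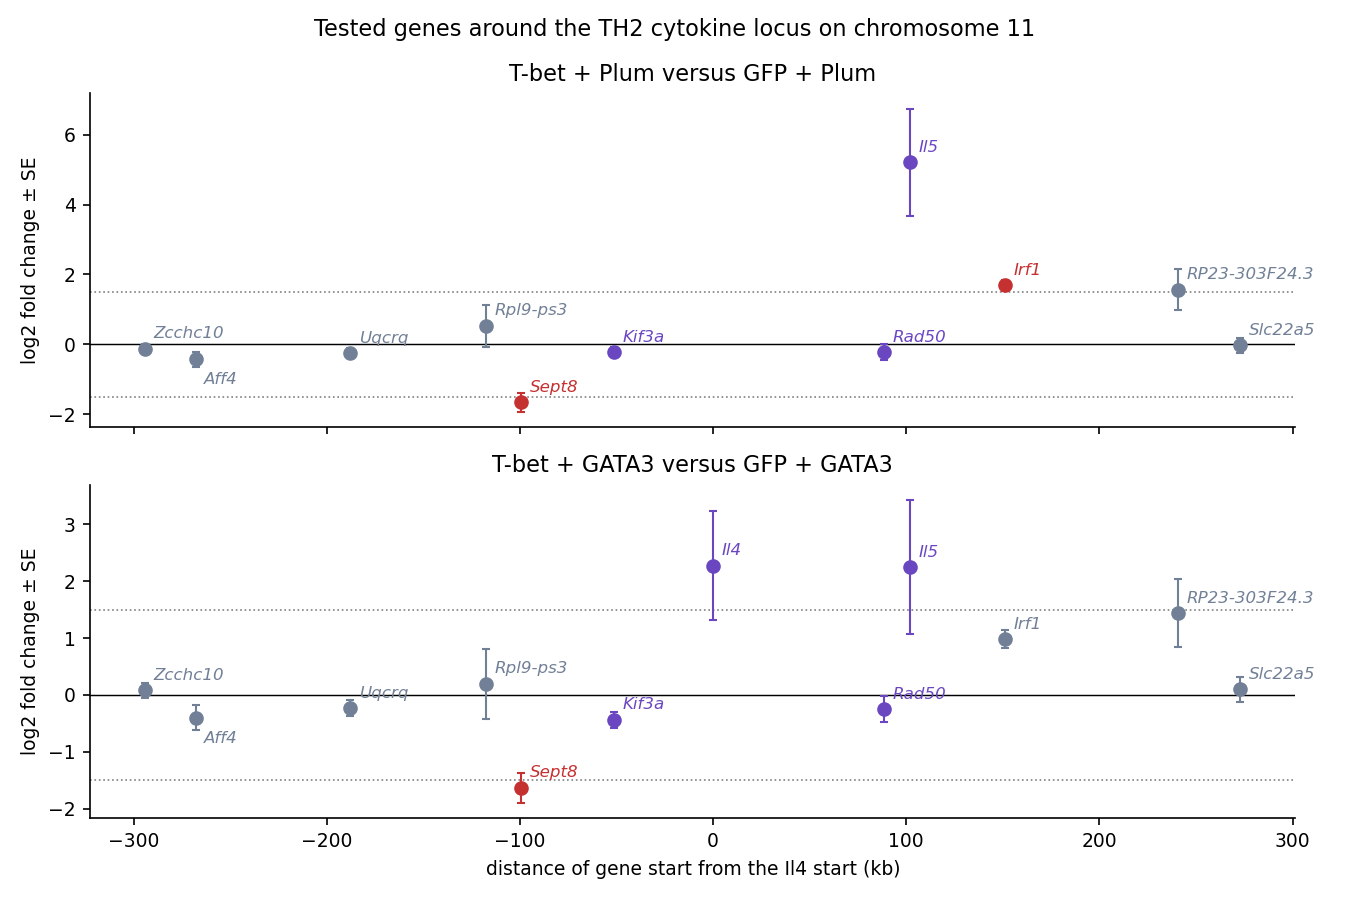
Log2 FC (points) and SE (bars) of the tested genes between 250 kb before Kif3a and 250 kb after Il5, by distance in kb of each gene's start from that of Il4, for T-bet added without (top) and with GATA3 (bottom). Members are purple, other called genes red and genes not called grey, dotted lines mark 1.5 and -1.5, and Il4 is left out on top because the control line had no counts. Sept8 lies near -1.6 in both panels, with Irf1 at 1.69 and 0.98 on the other side of Il5.

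Around Il9 and Il24 the same distance was searched. The stretch around Il9 held 18 genes, of which only Smad5, encoding a mediator of BMP signalling, was tested, and it was at 70.6 to 77.0 CPM by line and not called. That around Il24 held 22 genes, 9 of which were tested. Il10, encoding an anti-inflammatory cytokine, was at 1.55 ± 1.39 CPM in GFP + Plum, 0.637 ± 0.549 in T-bet + Plum, 3.15 ± 0.419 in GFP + GATA3 and 1.17 ± 1.56 in T-bet + GATA3, and was not called. Mapkapk2, encoding a kinase of the p38 pathway, was at 130.2 ± 16.1, 232 ± 3.44, 126 ± 6.68 and 326 ± 96.4 CPM in the same order, with log2 FC of 0.83 (adjusted p = 0.0468) for T-bet alone and 1.37 (adjusted p = 0.00673) for T-bet on top of GATA3, both under the size threshold. RP23-122P5.3, a transcript model of unclear status that lies inside Mapkapk2 on the same strand, was called higher for T-bet + GATA3 against GFP + Plum (1.54, adjusted p = 0.00894) and against GFP + GATA3 (1.68, adjusted p = 0.00591), and its counts may be shared with Mapkapk2. The first of these calls was lost without replicate 1 of T-bet + GATA3 (1.25) or replicate 2 of GFP + Plum (1.40), with scaling by library size (1.45) and in a fit of the 4 libraries alone (adjusted p = 0.0584), and the second without replicate 1 of T-bet + GATA3 (1.40) or either GFP + GATA3 library (adjusted p = 0.0510 and 0.0640).

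The receptors of these cytokines and their signalling chain formed a list of 21 genes, of which 14 were tested. Il4ra and Stat5a, 2 of the 14, rose in T-bet + Plum and in T-bet + GATA3 against GFP + Plum and in T-bet + GATA3 against GFP + GATA3, in which 3.02%, 2.61% and 2.85% of all genes were called, and the other 12 were not called. Il4ra, the shared receptor chain of IL-4 and IL-13, was at 7.05 ± 0.167 CPM in GFP + Plum, 26.3 ± 3.09 in T-bet + Plum, 6.37 ± 1.03 in GFP + GATA3 and 24.0 ± 4.13 in T-bet + GATA3. It rose with a log2 FC of 1.90 ± 0.198 for T-bet alone (adjusted p = 0.00157) and of 1.90 ± 0.201 on top of GATA3 (adjusted p = 0.00175). Stat5a, a signal carrier of IL-2 family receptors and of the IL-5 receptor, rose by 1.76 ± 0.126 (adjusted p = 0.000245) and 2.21 ± 0.129 (adjusted p = 0.000104). Both kept these calls without any 1 library. No gene of the list was called for GATA3 with or without T-bet. The median log2 FC of the list was 0.87 for T-bet alone and 0.38 on top of GATA3, beside 0.01 for all genes in both. Il5ra, the specific IL-5 receptor chain, was at 0.408 ± 0.140 to 1.91 ± 0.818 CPM by line, and Il13ra2 and Il22ra1 had no counts.

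A further list of 36 genes held transcription factors, chromatin proteins and other regulators linked to TH2 cytokine expression, among them the secreted matrix protein Ecm1, and 33 were tested. In T-bet + Plum versus GFP + Plum 3 rose (Tbx21, Gfi1 and Runx1) and Maf fell, beside 3.02% of all genes called, and in T-bet + GATA3 versus GFP + GATA3 Tbx21 and Gfi1 rose and Maf fell, beside 2.85%. Maf, an activator of Il4, was at 29.4 ± 1.80 CPM in GFP + Plum and 36.0 ± 5.53 in GFP + GATA3, and at 1.96 ± 0.131 in T-bet + Plum and 1.85 ± 0.481 in T-bet + GATA3. It fell by 3.89 on the log2 scale for T-bet alone (SE 0.225, adjusted p = 8.45e-05) and by 4.24 on top of GATA3 (SE 0.225, adjusted p = 7.75e-05), and kept these calls without any 1 library. Its part in the Il4 levels was not tested. Tbx21 and Gata3 are the factors that were added, so their own rise is not a response, and in the comparisons of GATA3 lines with their counterparts Gata3 was the only gene of the list called.

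Gfi1, a repressor that supports growth of TH2 cells, was at 16.1 ± 8.31 CPM in GFP + Plum and 19.3 ± 3.51 in GFP + GATA3, and at 49.4 ± 5.32 in T-bet + Plum and 61.7 ± 18.2 in T-bet + GATA3. It was called higher for T-bet alone (log2 FC 1.62 ± 0.351, adjusted p = 0.0344) and on top of GATA3 (1.66 ± 0.351, adjusted p = 0.0310). With 1 library left out, its log2 FC ran from 1.17 to 2.27 for T-bet alone and from 1.31 to 1.9 on top of GATA3. Leaving out 1 library ended the first call for either T-bet + Plum library (adjusted p = 0.112 and 0.194), either GFP + GATA3 library (0.0508 and 0.0510) and replicate 2 of GFP + Plum (0.0789), and the second for either library of T-bet + Plum (0.0625 and 0.0645) or GFP + GATA3 (0.186 and 0.126) and replicate 1 of T-bet + GATA3 (0.170). Transcript length offsets also ended both calls of Gfi1 (log2 FC 1.49 and 1.51, adjusted p = 0.0607 and 0.0585). Runx1, a Runt-family factor, rose for T-bet alone (1.55 ± 0.275, adjusted p = 0.0160), from 14.2 ± 5.69 to 41.7 ± 9.14 CPM, a call that was lost without replicate 2 of GFP + Plum (1.2) or of T-bet + Plum (1.31, adjusted p = 0.129) and, by size, with transcript length offsets (1.48).

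Other cytokines linked to TH2 responses completed the picture. Of 12, only 5 were tested (Il3, Csf2, Il10, Il33 and Tslp), and the remaining 7, among them Il21, Il31 and Il25, had at most 10 counts in any library. Csf2 rose and Il33 fell for T-bet alone and on top of GATA3, in which 3.02% and 2.85% of all genes were called. Il33 was also called lower for both factors against GFP + Plum (2.61% of all genes were called). Csf2, encoding GM-CSF, was at 39.9 ± 19.2 CPM in GFP + Plum, 359 ± 213 in T-bet + Plum, 17.9 ± 16.6 in GFP + GATA3 and 303 ± 20.5 in T-bet + GATA3. It rose with T-bet alone (log2 FC 3.17 ± 0.694, adjusted p = 0.0354) and on top of GATA3 (4.12 ± 0.738, adjusted p = 0.0165), but was not called with both factors against GFP + Plum (2.93 ± 0.688, adjusted p = 0.0537). With 1 library left out, its log2 FC ran from 2.39 to 3.76 for T-bet alone and from 3.35 to 5.62 on top of GATA3. The first call was lost without any 1 library of GFP + Plum, T-bet + Plum or T-bet + GATA3 (adjusted p from 0.0514 to 0.177), and the second without replicate 1 of T-bet + GATA3 (0.0515) or replicate 2 of GFP + GATA3 (0.0552).

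Il33, encoding an alarmin cytokine, went from 15.9 ± 14.1 CPM in GFP + Plum and 19.3 ± 3.48 in GFP + GATA3 to 1.25 ± 0.700 in T-bet + Plum and 1.26 ± 1.12 in T-bet + GATA3. It fell by 3.77 on the log2 scale for T-bet alone (SE 0.847, adjusted p = 0.0389) and by 4.06 on top of GATA3 (SE 0.845, adjusted p = 0.0294). Either call was lost without any 1 of several libraries: for the first, both of T-bet + Plum (adjusted p = 0.139 and 0.295), both of GFP + GATA3 (0.0607 and 0.0608) and replicate 1 of GFP + Plum (0.0856, log2 FC -2.35), and for the second, both of T-bet + Plum (0.0528 and 0.0541), GFP + GATA3 (0.104 and 0.0890) and T-bet + GATA3 (0.0628 and 0.121). The first was also lost with transcript length offsets (-3.54, adjusted p = 0.0526). Both factors against GFP + Plum gave -3.79 ± 0.841 (adjusted p = 0.0437), a call lost in 8 of 15 alternatives. With 1 library left out, the log2 FC of Il33 ran from -4.48 to -2.35 for T-bet alone and from -5.36 to -3.26 on top of GATA3. For both factors it ran from -5.08 to -2.36. The median log2 FC of the 5 tested cytokines, which went both ways, was -0.92 for T-bet alone and 0.24 on top of GATA3, beside 0.01 for all genes in both.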

How the data were processed

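RNA-seq values of 8 libraries, 2 for each of 4 EL4 lines, were analysed. The authors trimmed reads with Trim Galore after FastQC and ran kallisto on Gencode transcripts of mouse GRCm38 (mm10); tool versions are not given in the sources used here. The deposited estimated counts are not normalized, and the deposited TPM are length-scaled abundances relative to all transcripts of a library.

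For each gene, the estimated counts of its transcripts were added up and rounded, and likewise the TPM without rounding. The main test was edgeR 4.0.16 (R 4.3.3; TMM, filterByExpr, quasi-likelihood, Benjamini-Hochberg over 14791 genes, 4 residual degrees of freedom). Calls needed an adjusted p no larger than 0.05 and a log2 FC beyond 1.5 in either direction. SE was derived from the log2 FC and its F statistic. CPM use TMM-scaled totals, and 95% intervals of counts are exact Poisson. Positions come from Gencode M21 on GRCm38. Alternatives used DESeq2 1.42.0, other scalings, filters and fits. Scripts were tested on simulated data. Replicates differed by more than counting noise (chi-square per degree of freedom 10.2 to 30.9).

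Members and lists were chosen with earlier results of these data known. Beyond the 7 members, genes of a list or stretch were named when called, up to 10 a list by size, with a few others (Il10, Il5ra, Mapkapk2 and Smad5) chosen after their values were seen, and the 3 protein-coding genes most correlated with each tested cytokine (log2 CPM, prior count 2). The contrast averaged over GATA3 states was added after seeing the data.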

Additional observations from a re-analysis of the deposited data

How the results depend on the processing

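Il4 had no counts in GFP + Plum, and Il5 was lower there than in every other library. The alternatives could therefore not reverse their direction against this line, but their calls changed. Without a filter on low counts, edgeR called 2 members (Il4 and Il5) for T-bet alone, GATA3 alone, both factors and T-bet on top of GATA3, and 1 (Il5) in the interaction, beside 2.63%, 0.446%, 2.46%, 2.63% and 0.33% of 30930 genes. In that fit the SE of Il5 was 0.288 for T-bet alone and 0.364 for the interaction, against 1.53 and 1.94 with the filter. The T-bet + GATA3 libraries of Il5 were at 97.2 and 5.59 CPM. Calls of the unfiltered fit thus do not reflect the spread between harvests and are a description only. DESeq2 called 1 (Il4), 2 (Il4 and Il5) and 1 (Il4) for T-bet alone, both factors and T-bet averaged over GATA3 states. With only the 4 libraries compared, 1 (Il5) was called for T-bet alone (2.88% of genes), as a description only, since it passed the filter there through T-bet + Plum. With at least 10 counts required in every library, Il4 and Il5 were not tested, which left 0 members called for both factors and for T-bet averaged. Leaving out 1 library gave 0 to 1 member called for T-bet alone, for both factors and for T-bet averaged, beside 201 to 444, 260 to 354 and 504 to 710 of all genes (446, 386 and 666 with all libraries). Without replicate 2 of GFP + GATA3, Il4 was at 0 in that line and in GFP + Plum and gave no value for GATA3 alone or the interaction. The causes of the other changes were not tested.

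Rad50 changed sign with transcript length offsets for GATA3 on top of T-bet (-0.0203) and without a filter in the interaction (0.00375). Leaving out 1 library, the log2 FC of Rad50 ranged from -0.48 to 0.0186 for T-bet alone, -0.118 to 0.336 for GATA3 alone, -0.324 to 0.0825 for both, -0.152 to 0.345 for GATA3 on top of T-bet and -0.271 to 0.227 for the interaction. That of Kif3a ranged from -0.194 to 0.0375 for GATA3 on top of T-bet, and that of Il5 from -0.95 to 3.65 for T-bet on top of GATA3 and from -2.45 to 1.66 for GATA3 on top of T-bet.

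Deviations of libraries with the same replicate number correlated with r from -0.0455 to 0.302 over 6 pairs of lines, over 0.1 in 4 of them. The labels do not say what the numbers share, and the libraries were not treated as paired. With the replicate number as a block, 1 member (Il4) was called for both factors, 2 (Il4 and Il5) for T-bet averaged and 0 in the other comparisons, as without it (3.14% and 4.79% of all genes in the first and second). The low counts of Il4, Il13, Il9 and Il24 limit the differences that were detectable.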
